A study of Drosophila melanogaster with 6 samples.

Results

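The genes described here serve protein folding and stress signalling in the endoplasmic reticulum (ER) of Drosophila melanogaster. They were 10 genes chosen by symbol. Ire1, Atf6, crc and Xbp1 sense or relay ER stress, and Hsc70-3, Gp93, Pdi, ERp60 and Cnx99A fold proteins in the ER lumen or membrane. The last, wfs1, is an ER membrane gene. Of the 10 genes, 9 were among the 10845 genes that a probe set of the array names alone. They were represented by 10 of the 14010 probe sets, 2 of them for Hsc70-3. Xbp1 had no probe set named for it alone in the annotation and was not analysed here. Of these 10 probe sets, 9 passed the filter on low values, a log2 value above 4 on at least 3 of the 6 arrays, 1 for each of the 9 genes.

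The cells were Kc-167, an embryonic fly line with features of haemocytes, the blood cells of the fly. Controls received double-stranded RNA for beta-lactamase, which is a gene of bacteria and not of flies. The other cells received double-stranded RNA for Enigma (CG9006, current symbol Egm), whose mitochondrial protein resembles the acyl-CoA dehydrogenases. Both groups had the same line, 20 µg of double-stranded RNA for 1 hour in serum-free medium, then serum, and harvest after 5 days, and each group had 3 arrays numbered 1 to 3. Arrays of the 2 groups that carry 1 replicate number are called a pair. Whether the replicates came from separate cultures is not stated in the labels, so the p-values cover the spread between arrays, which may be technical.

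Proteins that enter the secretory pathway fold in the ER with the help of an Hsp70 and an Hsp90 chaperone, lectin chaperones that bind sugar chains, and disulphide isomerases that form and shuffle disulphide bonds. When unfolded proteins accumulate, the kinase and nuclease Ire1, the kinase PEK and the membrane-bound factor Atf6 start the unfolded protein response, which raises the transcription of chaperone genes and slows translation. Ire1 acts by splicing the Xbp1 transcript and PEK by allowing more translation of crc, so that neither step has to show in the amount of transcript that an array measures. Levels below are log2 values from GCRMA, and each difference is the Enigma RNAi mean less the control mean. A probe set passed at a limma p under 0.05 after Benjamini-Hochberg adjustment across every tested probe set, and the fit with the block has the replicate number as a term, so that arrays are compared within pairs.

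The Enigma transcript, the target of the double-stranded RNA, was at 6.00, 6.41 and 6.71 on control arrays 1 to 3 and at 3.24, 3.51 and 4.21 on the Enigma RNAi arrays. All Enigma RNAi values lay below all control values, with a difference of -2.72 (SE 0.29) that did not pass without the block (limma, adjusted p = 0.283) and passed with the replicate number as a block (limma, adjusted p = 0.000118). An exact permutation test, two-sided, gave p = 0.1, and 3 against 3 arrays cannot give less. Markers of plasmatocytes, the main haemocyte class, were above the filter for 6 of 10 genes, among them Hml, Pxn, srp and the collagen IV genes Col4a1 and vkg, while NimC1, eater, crq and Sr-CI were not. Markers of lamellocytes (0 of 3) and of fat body (0 of 4 with a probe set) were below it, those of crystal cells (1 of 4), muscle (1 of 3), neurons (2 of 4) and germline (2 of 3) partly above.

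After Enigma RNAi the ER genes did not move in 1 direction. The luminal folding genes Hsc70-3, ERp60 and Pdi had the lower mean in all 3 pairs, by 0.37, 0.29 and 0.18 on the log2 scale. The genes wfs1 and crc had the higher mean in all 3 pairs, by 0.56 and 0.19. So 3 of 9 were lower and 2 of 9 higher in all pairs, against 24.9% and 15.1% of all tested genes. The Hsc70-3 probe set may hold RNA of other Hsp70 genes, as described below. The stress sensors Ire1 and Atf6, the lectin chaperone Cnx99A and the Hsp90 chaperone Gp93 differed by 0.13 or less and did not have the same sign in all pairs. None of these differences passed over all probe sets: 0 of the 9 tested probe sets had an adjusted p under 0.05 in limma without the block, where 0% of all 6975 tested probe sets did, and 0 of 9 with the block, where 0.631% did. At an unadjusted p under 0.05 without the block there were 2 of 9, Hsc70-3 and ERp60, both lower, against 2.57% of all probe sets that were lower. RNA from whole cultures was measured, so fewer cells of a type and less RNA per cell cannot be told apart.

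**Figure D1:**
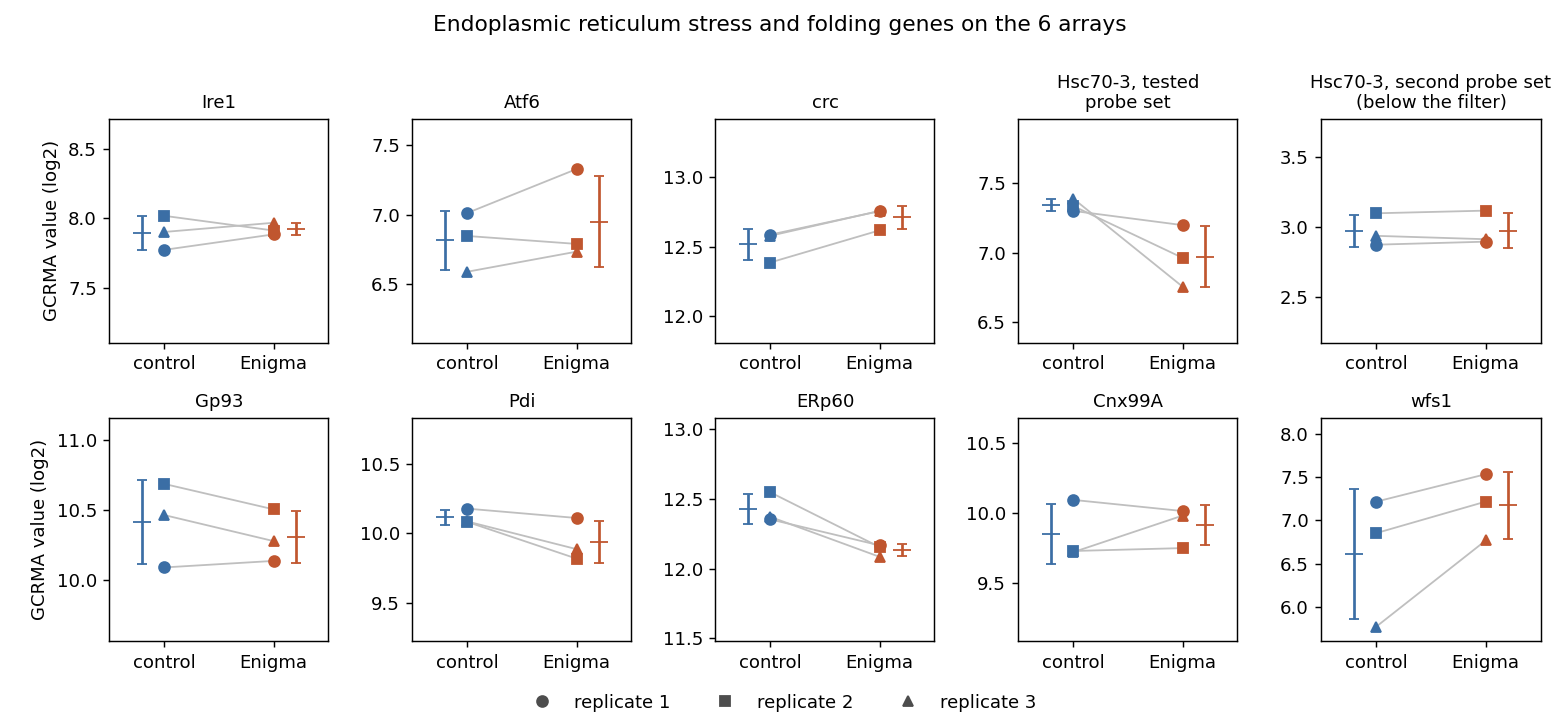
GCRMA values (log2, vertical axis) of the 10 probe sets on the 3 control and 3 Enigma RNAi arrays, with symbols for the replicate number, grey lines joining the arrays of a pair, and bars for mean ± SD (n = 3). Hsc70-3 (tested probe set) and ERp60 lie lower and crc higher on all 3 Enigma RNAi arrays than on all controls, and control 3 of wfs1, at 5.78, lies below the other arrays.

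Among the sensors, Ire1 had values of 7.77, 8.02 and 7.90 on the control arrays and 7.89, 7.91 and 7.97 on the Enigma RNAi arrays. The Enigma RNAi values lay inside the range of the controls, and the difference was 0.024 with a 95% confidence interval of -0.24 to 0.28 (limma, adjusted p = 0.999). An interval this wide holds a fall or a rise of that size, so that the result does not show an equal level.

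Atf6, a transcription factor held in the ER membrane and released by proteolysis in the Golgi, was at 7.01, 6.85 and 6.59 on the control arrays and at 7.33, 6.79 and 6.73 on the Enigma RNAi arrays. Number 1 was the highest array of each group, and the groups overlapped. The difference was 0.13 (SE 0.20; limma, adjusted p = 0.999), higher in 2 of 3 pairs, and it was -0.054 without Enigma 1. S1P and S2P, whose counterparts in mammals are the proteases that release Atf6, differed by 0.0098 and -0.15, and the sensor kinase PEK by -0.09.

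The bZIP factor crc, the fly counterpart of ATF4, is translated when initiation factor eIF2 is phosphorylated and drives genes of amino acid supply and redox defence. Its probe set was at 12.59, 12.39 and 12.58 on the control arrays and at 12.76, 12.62 and 12.76 on the Enigma RNAi arrays. The lowest Enigma RNAi value lay just above the highest control value, by a margin smaller than the spread within either group. Its 3 pair differences were close together, at 0.17, 0.23 and 0.18, with a mean of 0.19 (95% confidence interval -0.072 to 0.46; limma, adjusted p = 0.999), and without control 2 the difference was 0.13. Groups with all values higher after Enigma RNAi were found for 2.81% of all tested probe sets. The gene of this probe set rests on a symbol and an Entrez number with no sequence accession, and Crc with a capital is an older symbol of Calr, the calreticulin gene, for which no probe set is named here.

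Hsc70-3, the fly counterpart of BiP, is the Hsp70 chaperone of the ER lumen and the usual transcript by which ER stress is read. The tested probe set was at 7.30, 7.33 and 7.39 on the control arrays and at 7.20, 6.96 and 6.76 on the Enigma RNAi arrays. The controls lay close together, the Enigma RNAi arrays were spread more widely, with an SD of 0.22 against 0.045, and all were below the controls, as for 6.16% of all tested probe sets. The pair differences were -0.10, -0.37 and -0.63. Their mean was -0.37 (95% confidence interval -0.69 to -0.043; limma, adjusted p = 0.999), which equals 1.29-fold lower, with p = 0.1 in the exact two-sided permutation test. With the block the adjusted p was 0.155 in limma, and leaving out replicate 1, 2 or 3 in that fit gave adjusted p = 0.0310, 0.315 and 0.477. The difference was -0.24 in the last of these, and in the first 586 of all 6975 tested probe sets passed. Larger absolute differences were found for 9.62% of all tested probe sets.

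The second probe set of Hsc70-3 lay below the filter on all arrays, at 2.87, 3.10 and 2.94 in controls and 2.89, 3.12 and 2.91 after Enigma RNAi. It gave no level that could be compared. By the array maker's naming, the suffix of the tested probe set marks probes shared within a gene family, so that its signal may hold RNA of other Hsp70 genes and the value of Hsc70-3 is uncertain. Hsc70-4, the main cytosolic Hsp70 cognate, had a control mean of 13.05 and a difference of 0.13 on its own probe set. It was higher in 3 of 3 pairs, as were 15% of all tested probe sets. Whether its RNA enters the signal of the Hsc70-3 probe set was not tested.

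Gp93, the fly counterpart of the ER Hsp90 chaperone GRP94, was at 10.09, 10.69 and 10.46 on the control arrays and at 10.14, 10.51 and 10.28 on the Enigma RNAi arrays. Number 1 was the lowest array of each group and number 2 the highest, and the groups overlapped. The difference was -0.11 (SE 0.18; limma, adjusted p = 0.999), lower in 2 of 3 pairs, and it was 0.029 without control 2 and -0.27 without control 1.

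ERp60, a thiol oxidoreductase that in mammals works with the lectin chaperones on glycoproteins, was at 12.35, 12.55 and 12.37 on the control arrays and at 12.17, 12.15 and 12.08 on the Enigma RNAi arrays. All Enigma RNAi values lay below all control values. The pair differences were -0.19, -0.39 and -0.29, with a mean of -0.29 (95% confidence interval -0.54 to -0.036; limma, adjusted p = 0.999), which equals 1.22-fold lower, and with the block the adjusted p was 0.156. The exact permutation test gave p = 0.1, two-sided, and 15.6% of all tested probe sets had a larger absolute difference.

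Pdi, the classical disulphide isomerase, was at 10.18, 10.08 and 10.09 on the control arrays and at 10.11, 9.82 and 9.89 on the Enigma RNAi arrays. Enigma 1 lay inside the control range and the other 2 below it. The difference was -0.18 (SE 0.12; limma, adjusted p = 0.999), lower in 3 of 3 pairs, as for 25.2% of all tested probe sets, and it was -0.12 without Enigma 2.

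Cnx99A encodes calnexin, the membrane-bound lectin chaperone that holds newly made glycoproteins. Its probe set was at 10.09, 9.73 and 9.72 on the control arrays and at 10.01, 9.75 and 9.98 on the Enigma RNAi arrays. The groups overlapped, with control 1 the highest of the 6. The pair differences were -0.080, 0.021 and 0.26, with a mean of 0.068 (SE 0.15; limma, adjusted p = 0.999), and the mean was 0.0038 without control 3 and 0.19 without control 1.

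wfs1 is the fly counterpart of the human gene of Wolfram syndrome, an ER membrane protein linked to ER stress and calcium. Its probe set was at 7.22, 6.85 and 5.78 on the control arrays and at 7.53, 7.22 and 6.77 on the Enigma RNAi arrays. Number 3 was the lowest array of each group, control 3 lay more than 1 log2 unit below control 2, and the groups overlapped. The pair differences were 0.32, 0.36 and 0.99, with a mean of 0.56, or 1.47-fold, and a 95% confidence interval of -0.36 to 1.48 without the block (limma, adjusted p = 0.999) and of 0.22 to 0.89 with it (limma, adjusted p = 0.0995). Without control 3 the difference was 0.14, and with the block and without replicate 3 it was 0.34. With the block wfs1 passed without replicate 1 (limma, adjusted p = 0.00405) and not without replicate 2 (adjusted p = 0.172) or replicate 3 (adjusted p = 0.275). With the block and without replicate 1, 586 of all 6975 tested probe sets passed. Of all tested probe sets 3.30% had a larger absolute difference and 15% were higher in all 3 pairs.

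**Figure D2:**
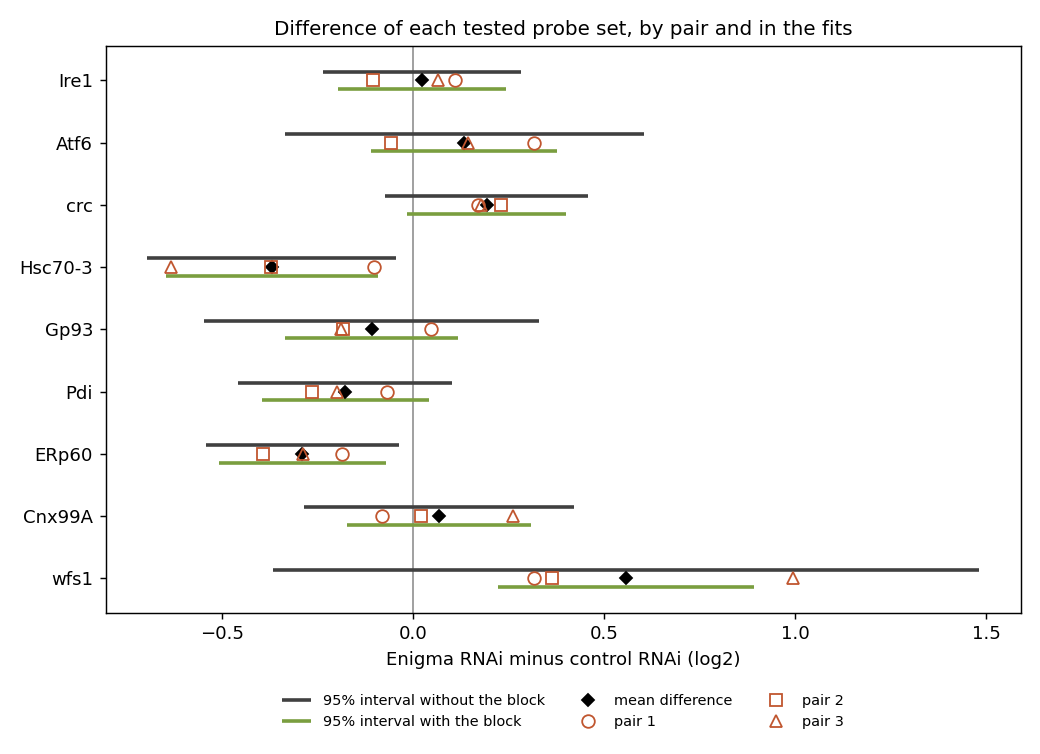
Differences (Enigma RNAi minus control RNAi, log2, horizontal axis) of the 9 tested probe sets, with open symbols for the 3 pairs, diamonds for the mean and lines for the 95% confidence intervals of limma without and with the replicate block. The intervals of Hsc70-3 and ERp60 lie below 0 in both fits, that of wfs1 lies above 0 with the block only, and none of the 9 passed after adjustment over all probe sets.

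The genes differed in how much of their variation followed the replicate number. For Gp93 86.9% of the sum of squares over the 6 arrays lay between replicate numbers and 6.43% between the groups, and for Atf6 these shares were 81.3% and 8.17%. Cnx99A and wfs1 followed the number as well, with 73.0% and 67.7% between numbers. ERp60 and Hsc70-3 showed the reverse order, with 82.3% and 66.8% between the groups and 10.7% and 10.3% between numbers. For crc 59.4% lay between the groups and 39.5% between numbers, which left 1.18%. Over all tested probe sets the median shares were 65.4% between numbers and 11.7% between the groups. No share was scaled to the number of classes, and 3 replicate numbers take up more of a random spread than 2 groups. Deviations from the group means correlated between the arrays of 1 number at r = 0.80, 0.64 and 0.65 across probe sets. Correlations between arrays of unlike number were not computed, so these values do not settle that the arrays pair by number.

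**Figure D3:**
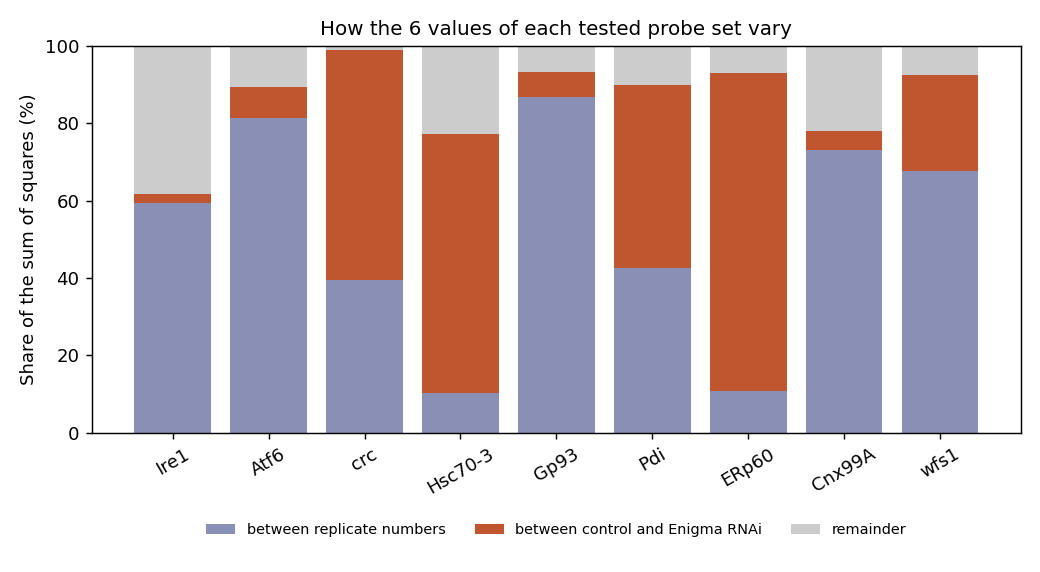
Share of the sum of squares of the 6 log2 values (vertical axis, percent) that lies between replicate numbers, between the control and Enigma RNAi groups, and in the remainder, for each of the 9 tested probe sets. Gp93 and Atf6 vary mostly with the replicate number, at 86.9% and 81.3%, and ERp60 and Hsc70-3 mostly between the groups, at 82.3% and 66.8%.

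The median difference over the 9 tested genes was 0.024, against -0.031 over all 5757 tested genes, and 4 of 9 had the lower mean, against 57.8% of all tested genes. In pairs 1, 2 and 3 their medians were 0.047, -0.11 and 0.066. Hsc70-3, Gp93, Pdi and ERp60 had the lower mean and the other 5 the higher one, but the sign of Gp93, Ire1, Atf6 and Cnx99A turned when single arrays or replicates were left out.

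Wider lists of ER genes are given by counts and medians. The ER Hsp70 and Hsp90 chaperones with their cochaperones had the lower mean for 9 of 9 tested genes, against 57.8% of all tested genes. Of the 9, 3 were lower in all pairs, against 24.9% of all tested genes. The median was -0.11, and in pairs 1, 2 and 3 it was -0.00089, -0.18 and -0.22. The smallest difference was that of shv, at -0.0060. None of the 9 genes passed in limma, and Hsc70-3 was the 1 gene at an unadjusted p under 0.05. Next to Hsc70-3 the largest differences were those of CNPYb, a canopy family gene, at -0.36, or -0.58 without Enigma 1, and Sec63, the membrane J-domain partner of the Hsp70 at the translocon, at -0.23. CNPYb had 7.48, 7.47 and 7.36 on the control arrays and 7.51, 6.88 and 6.85 on the Enigma RNAi arrays, so that its difference came from numbers 2 and 3. The median of this list was -0.27 without control 1.

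Of the 11 tested disulphide isomerases and ER oxidases 7 had the lower mean, near the 57.8% of all tested genes, and 5 of these in all pairs, against 24.9%. Their median was -0.087. Besides ERp60 and Pdi these included ERp44, which retains client enzymes in the early secretory pathway, at -0.23, or -0.14 without control 3, and CG9302 at -0.21, or -0.088 without Enigma 2 and -0.35 without control 2. Ero1L, the oxidase that recharges disulphide isomerases, differed by -0.06. The median of this list was 0.025 with the block and without replicate 3. Of the 4 tested lectin chaperones and glucosidases 3 had the lower mean, too few to set against 57.8%, with GCS1, a glucosidase that trims sugar chains, at -0.36, or -0.11 without Enigma 2, and the folding sensor Uggt at -0.13, or 0.082 without Enigma 2. Their median was -0.079, and 0.035 without Enigma 2.

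Genes that bring proteins into the ER and attach sugar chains had the lower mean more often than not. Of 18 tested genes of the signal recognition particle, the translocon and the signal peptidase 15 had the lower mean, against 57.8% of all tested genes, 10 were lower in all pairs, against 24.9%, and the groups did not overlap for 4, all lower, against 6.03%. Their median was -0.17, and -0.052 without Enigma 2. TRAM, a membrane protein beside the translocon, was at 7.21, 7.51 and 7.36 on the control arrays and at 7.04, 6.69 and 6.87 on the Enigma RNAi arrays, a difference of -0.49 (SE 0.14; limma, adjusted p = 0.999, and 0.108 with the block). All Enigma RNAi values of TRAM lay below the controls. Spase12, a subunit of signal peptidase, differed by -0.38, also without overlap of the groups, and the channel subunit Sec61alpha by -0.23.

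All 5 tested subunits of the oligosaccharyltransferase, which transfers the sugar chain to asparagine, had the lower mean, against 57.8% of all tested genes, with a median of -0.24. A list of 5 genes is small. All probe sets at a mean log2 value of at least 6, as these were, had a median of -0.061, lower than the -0.031 of all tested probe sets. Stt3B, a catalytic subunit, was at 10.46, 10.40 and 10.37 on the control arrays and at 9.93, 10.13 and 10.13 on the Enigma RNAi arrays, a difference of -0.35 (SE 0.11; limma, adjusted p = 0.999, and 0.129 with the block). Dad1, a small subunit, differed by -0.28. The groups did not overlap for either gene, 2 of 5 genes against 6.03% of all tested genes that were lower without overlap, and both were at an unadjusted p under 0.05 and lower, against 2.38% of all tested genes. Stt3A, another catalytic subunit, differed by -0.080 and Ostgamma by -0.0088.

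The list of stress sensors, their transcription factors and attenuators had the higher mean for 9 of 11 tested genes, against 2429 of all 5757. Its median was 0.065, and in pairs 1, 2 and 3 it was 0.11, -0.0082 and 0.16. Of the 11 genes 4 were higher in all pairs, against 15.1% of all tested genes. The list's median was 0.0080 without control 3 and 0.16 without control 1. BI-1, an ER membrane protein that restrains cell death and Ire1 in mammals, was at 11.31, 11.46 and 11.10 on the control arrays and at 11.65, 11.84 and 11.50 on the Enigma RNAi arrays. All Enigma RNAi values lay above the controls and the pair differences were alike, at 0.34, 0.38 and 0.41, with a mean of 0.37 (SE 0.15; limma, adjusted p = 0.999, and 0.0864 with the block). It was the 1 gene of this list at an unadjusted p under 0.05, against 1.74% of all tested genes that were higher. PPP1R15, which ends the translation block, differed by 0.065, the kinase Gcn2, which starts it on amino acid shortage, by 0.11, and trbl by 0.028.

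ER-associated degradation, which returns misfolded proteins to the cytosol for the proteasome, had the lower mean for 8 of 13 tested genes, near the 57.8% of all tested genes, with a median of -0.034. Its ligase sip3, the fly Hrd1, differed by -0.35, or -0.18 without control 3, and the ligase partner Hrd3 and the channel gene Der-2 by -0.26 and -0.35. Herp differed by -0.017 and TER94, the ATPase that extracts the proteins, by 0.15. Ubc6, at 0.65 and at 0.25 without control 3, entered this list by its symbol, but the fly gene is known as the counterpart of yeast Rad6, and without it the median over 12 genes was -0.080. The median of the 13 was 0.025 without control 1 and 0.016 without Enigma 2, 0.012 after quantile normalization and 0.010 after cyclic loess.

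Of 4 tested genes of ER calcium handling, wfs1 and Orai, the plasma membrane channel opened when ER calcium is low, had the higher mean and SERCA, the calcium pump of the ER, and Stim, its calcium sensor, the lower. Orai differed by 0.26 without overlap of the groups, and SERCA by -0.071, with 0.00037 without Enigma 3. In the cytosol, 5 of 6 tested heat shock proteins and cochaperones had the higher mean, against 2429 of all 5757 tested genes, with a median of 0.19. That list held 18 genes, of which 9 had a probe set named for them alone. Hsp83 and Hsp70Aa were among those without one, and Hsp68, Hsc70-1 and Hsc70-2 were below the filter. The small heat shock proteins Hsp27 and Hsp26 differed by 0.69 and 0.44. Hsp27 passed with the block (limma, adjusted p = 0.0478), but not with the random block (adjusted p = 0.134), nor with the block and without replicate 2 (adjusted p = 0.0833) or replicate 3 (adjusted p = 0.126). Hsp26 differed by 0.21 without control 1 and 0.71 without control 2. The difference between the cytosolic list and the ER chaperone list was not tested.

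**Figure D4:**
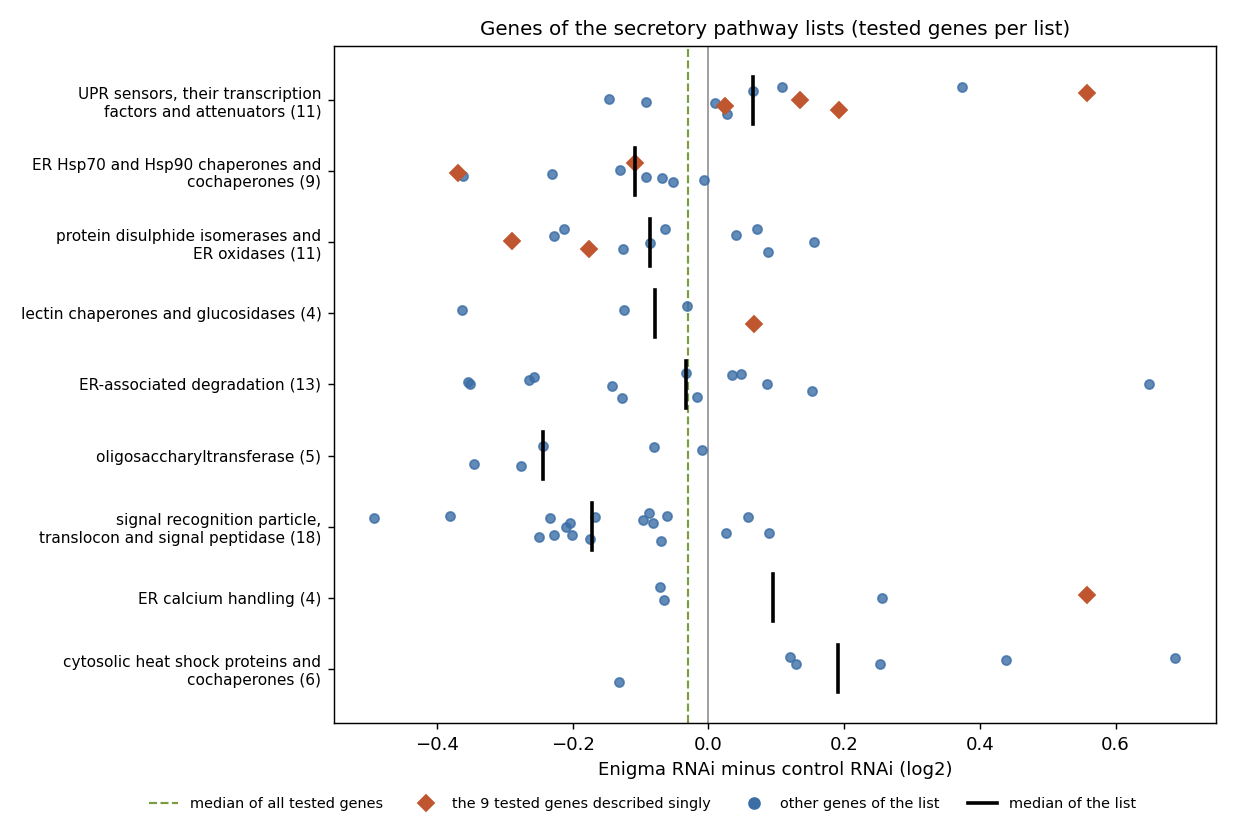
Differences (Enigma RNAi minus control RNAi, log2, horizontal axis) of the tested genes of 9 lists, with the number tested in brackets, diamonds for the 9 genes described singly, circles for other genes and black bars for list medians. The dashed line marks the median of all tested genes, -0.031. The medians of the oligosaccharyltransferase list, -0.24, and of the translocation list, -0.17, lie left of it, and those of the stress sensor list, 0.065, and of the cytosolic heat shock list, 0.19, to the right.

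Over the 8 ER lists together 51 of 74 tested genes had the lower mean, against 57.8% of all tested genes. Of the 74, 26 were lower in all pairs and 8 higher, against 24.9% and 15.1% of all tested genes. The median was -0.084, and without single arrays it lay between -0.15 without Enigma 1 and -0.036 without Enigma 2. With only probe sets at a mean log2 value of at least 6 it was -0.087, against -0.061 over all such probe sets. After quantile normalization it was -0.052, against -0.0058 over all tested probe sets, and after cyclic loess -0.039, against -0.015. In pairs 1, 2 and 3 the median of the 8 lists was -0.013, -0.16 and -0.13, against 0.0029, -0.030 and -0.048 over all tested genes. None of the 74 passed with or without the block in limma. Without the block 7 were at an unadjusted p under 0.05, 6 lower and 1 higher, against 2.38% and 1.74% of all tested genes. With the block 19 were, 15 lower and 4 higher, against 12.2% and 6.77%.

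Control probe sets of 3 transcripts report RNA quality in the same arrays. For eIF4A, the signal of the 3′ probe set minus that of the 5′ probe set was 1.49, 1.22 and 1.43 on the control arrays and 1.67, 1.52 and 1.95 on the Enigma RNAi arrays, higher in 3 of 3 pairs. For actin it was 0.65 ± 0.13 on the control arrays and 0.82 ± 0.18 on the others (SD, n = 3), higher in 3 of 3 pairs. For Gapdh it was 1.98 ± 0.12 and 2.06 ± 0.016 (SD, n = 3), higher in 2 of 3 pairs. The part of RNA quality in the differences of the ER genes was not tested.

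By Pearson correlation over the 6 arrays, the 5 genes whose values were most like those of Hsc70-3, out of 5756 compared, were tef at 0.99, CG14715 at 0.98, Prim1 at 0.98, CG15745 at 0.97 and dnk at 0.97. These are the highest values of many and rest on 6 arrays that share replicate numbers, so they are a description of likeness and no more. After quantile normalization the value was 0.77 for tef, 0.75 for Prim1 and 0.85 for CG14715, and after cyclic loess 0.75 for tef and 0.80 for Prim1. The means of tef and Prim1 lay near the filter, at 4.87 and 4.74 in controls and 4.74 and 4.46 after Enigma RNAi. Their Spearman correlations with Hsc70-3 were 0.83 each, against 1 for CG14715, CG15745 and dnk. The Hsc70-3 probe set may itself hold RNA of other Hsp70 genes. No gene of the ER lists was among these 5 genes, but those lists held only 74 of the 5757 tested genes, so that the absence says little.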

How the data were processed

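The authors made the deposited log2 values with GCRMA, which corrects background, normalizes between arrays and summarises probes, as the submitters' processing notes name it without a version. That the scale is log2 was taken from the method and from the range of -0.32 to 14.3. The 6 arrays had 3 per group, and that number limits the precision.

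Probe sets above 4 on at least 3 of the 6 arrays were tested, 6975 of 14010, without 44 control probe sets. Names came from GEO's platform annotation, where 12444 probe sets had 1 gene, 327 had several and 1239 had none here. Of the 12444, 12394 matched RefSeq genes of Release 6 plus ISO1 MT by Entrez number. The probe set with the highest mean stood for a gene in lists.

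Groups were compared two-sided in limma 3.58.1 (R 4.3.3; lmFit, then eBayes). A probe set passed where its p, adjusted by Benjamini-Hochberg across every tested probe set, was under 0.05. The replicate number as a block was an alternative. The same code was tested on simulated data. These had no effect of the replicate number and held larger changes than those of the ER genes. They therefore do not show how differences of this size are recovered. The pairing comes from the numbers in the titles and the values, not from a stated batch. The members and lists were chosen with earlier results of these data known. Named genes were all members, Enigma, up to 4 other genes of each list at an unadjusted p under 0.05, otherwise the 2 that differed most, and the 5 genes most like Hsc70-3. Other list genes were named after their values were seen, for their roles. Alternatives were other filters, normalizations, array weights, a floor at 4 and leaving out arrays.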

Additional observations from a re-analysis of the deposited data

How the results depend on the processing

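The count of probe sets past the threshold, 0 without the block and 0 without any single array, was 44 with the replicate block, 3 with a random block, and between 2 and 586 with the block and without 1 replicate number. Of the 9 genes described singly 0 passed in each of these but the block without replicate 1, where 2 did, Hsc70-3 and wfs1. In that setting 586 of all 6975 tested probe sets passed. Of the other genes named from the lists CNPYb (adjusted p = 0.0142), TRAM (adjusted p = 0.00398), Ubc6 (adjusted p = 0.00447) and Hsp27 (adjusted p = 0.00246) passed there. Enigma passed with the block (adjusted p = 0.000118), at a difference of -2.72, with the random block, and with the block without 1 number, where the difference lay between -2.83 and -2.63, at -2.71 without replicate 1. Without single arrays and without the block it lay between -3.002 and -2.52. Besides Enigma and Hsp27 the block changed no call among the genes named. The median over the 9 genes, 0.024, lay between -0.038 and 0.029 without single arrays and between -0.030 and 0.089 with the block without 1 number, so its sign is not settled, and the cause was not tested. Among single genes the sign changed for Atf6, from -0.054 to 0.24 without single arrays, for Gp93, from -0.27 to 0.029, for Ire1, from -0.038 to 0.084 and with the block from -0.020 to 0.089, for Cnx99A with the block, from -0.030 to 0.14, for SERCA, from -0.20 to 0.00037 and with the block from -0.15 to 0.018, and for Uggt, from -0.36 to 0.082 and with the block from -0.26 to 0.0071. The list median changed sign for ER-associated degradation, from -0.11 to 0.025 without single arrays, 0.012 after quantile normalization and 0.010 after cyclic loess, for lectin chaperones, from -0.22 to 0.035 and with the block from -0.18 to 0.0055, and for disulphide isomerases with the block, from -0.21 to 0.025. The signs of Hsc70-3, ERp60, Pdi, crc and wfs1 held under every alternative run. The alternatives for the 8 lists together and for the likeness to Hsc70-3 were added after seeing the data.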
